A study of Danio rerio with 7 samples.

Results

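The sites described here are Sall4 peaks that carried no Cdx4 peak and lay far from called histone domains in bud-stage zebrafish embryos. They were chosen by 2 measured properties: no base of the Sall4 peak overlapped a Cdx4 peak, and the peak centre lay more than 5 kb from every called domain of H3K27ac and of H3K4me3. Of 9747 Sall4 peaks, 4987 met both conditions (51.2%), out of 38913 intervals in the 4 deposited lists. They are called remote Sall4-only sites below. Overlap with Cdx4 and distance to domains are therefore properties that the choice fixed, and they are given as description only. Score, spacing, position along the chromosomes and the distance to Cdx4 peaks that do not overlap were not used in the choice.

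The data are chromatin immunoprecipitation and sequencing (ChIP-seq) profiles of whole embryos of strain Tu at bud stage, when gastrulation ends. Myc-tagged Cdx4 and Myc-tagged Sall4 were both precipitated with the anti-Myc antibody, and H3K27ac and H3K4me3 each with an antibody against the mark. Per the labels, wild-type embryos taken at the 1-cell stage were either left uninjected or given an mRNA injection. The labels do not say which applies to which library, nor whether the tagged protein reached the level of the native one. Wild-type embryos carry no Myc-tagged Cdx4 or Sall4, so any tagged factor in these libraries was introduced. No listed library is an anti-Myc precipitation without a tagged factor. Peaks that do not come from the tagged factor therefore cannot be told apart. Each target had 1 library made from pooled embryos, so no value below carries a spread between embryos, no test between conditions was possible, and intervals cover counting error only.

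Sall4 belongs to the spalt family of zinc finger proteins that regulate transcription. In mouse embryonic stem cells it binds A/T-rich DNA and associates with the NuRD complex, which removes acetyl groups from histones. Cdx4 is a homeodomain factor of the caudal family that zebrafish embryos need for posterior patterning and for blood formation. H3K27ac marks active enhancers and promoters, and H3K4me3 marks promoters. A domain that was not called is not proof that the mark was absent, because the sources used here give neither the sequencing depth nor the calling thresholds. The same holds for Cdx4: Sall4-only means that no overlapping Cdx4 peak was called, not that Cdx4 was absent. In whole embryos, a mark or a bound factor present in few cells also cannot be told apart from a weak one in many.

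Remote sites were the larger share of Sall4-only binding, but fewer than the share of sequence they could occupy. Of the 7430 Sall4-only peaks, 67.1% (exact binomial 95% interval 66.0 to 68.2%) lay more than 5 kb from every domain. The sequence that far from every domain was 1189.4 Mb of the 1363.56 Mb that the lists reach, or 87.2%. Remote sites therefore had a density of 4.19 per Mb of remote sequence, whereas Sall4-only peaks within 5 kb of a domain had 14.0 per Mb of near sequence, a 3.35-fold higher density. For Sall4 peaks that overlap Cdx4 the corresponding ratio was 9.99-fold. Sequence that could not be aligned was not removed from these lengths.

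Density declined step by step with distance from the domains, also beyond the 5 kb limit. Sall4-only peaks had 6.53 peaks per Mb (exact Poisson 95% interval 6.09 to 7.00) at 5 to 10 kb from the nearest domain. The density was 4.80 per Mb (4.57 to 5.05) at 20 to 50 kb and 2.24 per Mb (2.03 to 2.47) at 100 to 200 kb. Beyond 200 kb it was 1.56 per Mb (1.33 to 1.80), which is 4.20-fold below the density at 5 to 10 kb. Peaks with both factors declined more steeply over the same range, from 1.62 per Mb to 0.0983 per Mb (0.0491 to 0.176), a 16.4-fold difference. Cdx4-only peaks declined by 3.56-fold, from 1.56 to 0.438 per Mb. Sall4-only peaks thus outnumbered shared Sall4 peaks 1.78 to 1 within 5 kb of a domain, 4.04 to 1 at 5 to 10 kb, 7.32 to 1 at 50 to 100 kb and 15.8 to 1 beyond 200 kb. The last ratio rests on 11 shared peaks and 174 Sall4-only peaks.

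**Figure D1:**
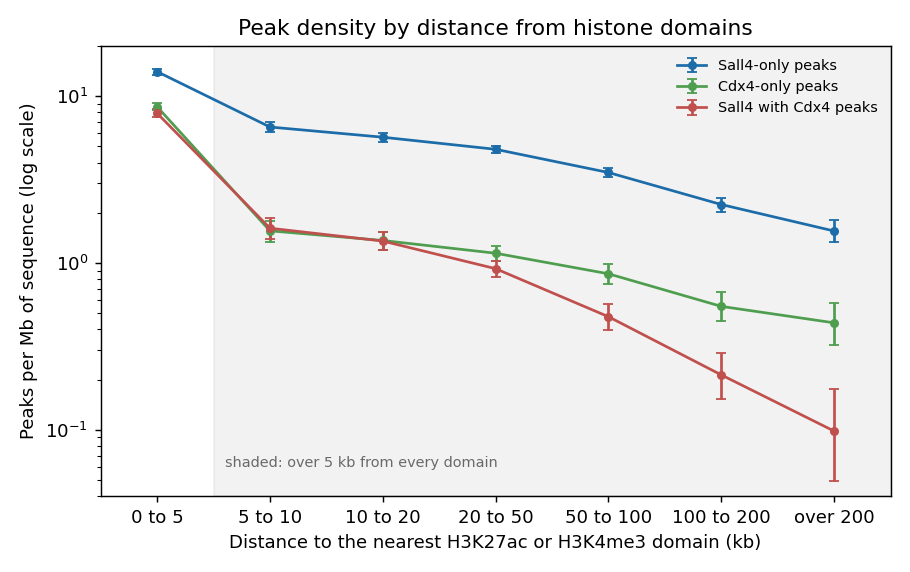
Peaks per Mb of sequence (log scale) against distance to the nearest H3K27ac or H3K4me3 domain in kb, for Sall4-only, Cdx4-only and shared Sall4 peaks, with exact Poisson 95% intervals as bars. In the shaded range the Sall4-only curve runs from 6.53 to 1.56 per Mb and the curve of shared peaks from 1.62 to 0.0983 per Mb.

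Remote sites lay at a wide range of distances from the domains. Among the 4886 sites with a domain on the same sequence, the nearest domain of either mark was a median of 28485 bp away (quartiles 13624.5 and 59227 bp). A total of 1573 sites (31.5%) lay over 50 kb, and 695 sites (13.9%) over 100 kb, from every domain. These counts include 101 sites on sequences that hold no domain at all. The first share depends on which domains are counted: with only domains over 500 bp wide, 3028 of 5942 sites (51.0%) lay over 50 kb away. Counting fewer domains can only lengthen these distances. Much sequence also lay that far out, so these shares do not show a preference for distance. Of 1189.4 Mb of remote sequence, 251.8 Mb lay at 50 to 100 kb from the nearest domain. Another 187.4 Mb lay at 100 to 200 kb and 111.9 Mb beyond 200 kb, and site density was lower there, as given above. An H3K4me3 domain was the nearer mark for 3289 sites (66.0%) and an H3K27ac domain for 1576 (31.6%). The H3K4me3 list is the longer one, with 19401 domains against 4599, so these 2 shares alone do not show a preference. An H3K4me3 domain was nearer for 58.5% (56.5 to 60.4%) of Sall4-only peaks within 5 kb of a domain. The share was 55.9% (52.7 to 59.1%) for Sall4 peaks over 5 kb from every domain that overlap Cdx4. Why the classes differ was not tested. At the limit itself, the nearest included sites were on chromosome 2 at 46362249 to 46362348 (5002 bp from an H3K27ac domain, score 51) and at 35393547 to 35393646 (5004 bp from an H3K4me3 domain, score 89). The nearest excluded peaks were on chromosome 23 at 26602250 to 26602349 (5000 bp from an H3K4me3 domain, score 80) and on chromosome 3 at 50506947 to 50507046 (4998 bp from an H3K27ac domain, score 85).

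The 5 sites on chromosomes that lay farthest from any domain had scores from 41 to 103. One on chromosome 1 at 45140266 to 45140365 had a score of 58, an H3K27ac domain at 507917 bp and an H3K4me3 domain at 587585 bp. Its nearest Sall4 peak was 542669 bp away. The next, on chromosome 20 at 16249024 to 16249123, had a score of 41 and its nearest domain at 502075 bp, and the one on chromosome 2 at 45409234 to 45409333 had a score of 73 and its nearest domain at 478517 bp. The last were a pair on chromosome 11, at 32330959 to 32331058 (score 103) and 32337915 to 32338014 (score 84), 6956 bp apart and with the nearest domain at 459910 and 466866 bp. Of these 5 sites, 3 scored below the median of all remote sites, 80, and the pair above it.

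Remote Sall4-only sites had lower scores than other Sall4 peaks. The score is the authors' own value per peak, on a scale that the sources used here do not give, and was used to rank peaks within the Sall4 list. The median was 80 at remote sites (quartiles 64 and 106), 88 at Sall4-only peaks within 5 kb of a domain (70.5 and 114) and 113 at equally remote peaks that overlap Cdx4 (81 and 164). With the list divided into 4 groups of nearly equal size by score, 858 remote sites (17.2%, exact 95% interval 16.2 to 18.3%) were in the top score group, whose scores run from 121 to 558. The share was 21.9% (20.2 to 23.6%) for Sall4-only peaks near domains and 46.0% (42.8 to 49.3%) for remote peaks with Cdx4. Among the 792 remote sites at 5 to 10 kb from a domain it was 21.8%, and at 50 to 100 kb 14.4%. In the bottom group, scores 29 to 67, the shares were 30.9% for all remote sites, 20.9% for Sall4-only peaks near domains and 12.8% for remote peaks with Cdx4. The distributions overlapped widely, and the highest remote Sall4-only score, 347, was below the 558 reached by remote peaks with Cdx4.

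**Figure D2:**
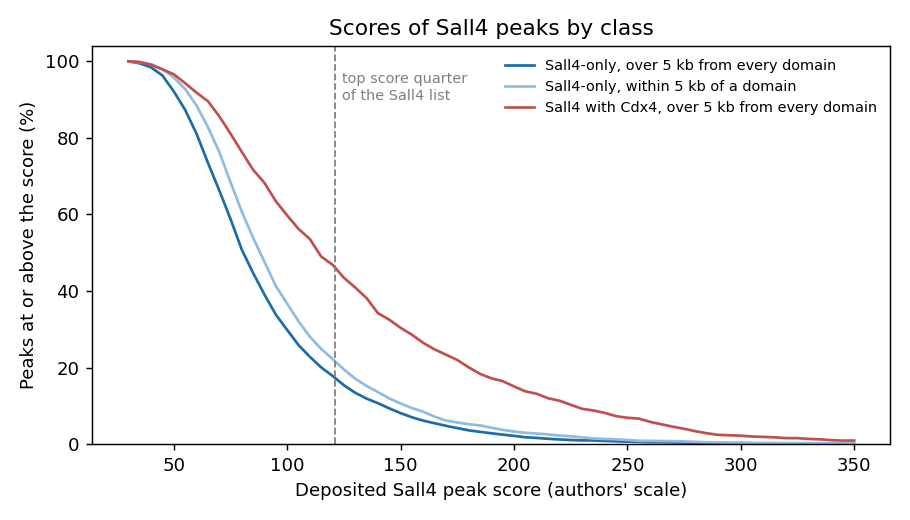
Percentage of peaks at or above each deposited Sall4 score, for remote Sall4-only sites, Sall4-only peaks within 5 kb of a domain, and remote Sall4 peaks that overlap Cdx4. At the dashed line (score 121) the curves stand at 17.2%, 21.9% and 46.0%.

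Score and remoteness were linked only weakly within Sall4-only binding. In the 4 score groups, taken from high to low, 61.6%, 63.4%, 66.3% and 75.1% of Sall4-only peaks were remote. Among Sall4 peaks with Cdx4 the shares were 41.1%, 38.8%, 39.5% and 44.4%. Within the remote sites the median score was 85 at 5 to 10 kb, 84 at 20 to 50 kb, 76 at 50 to 100 kb, 72 at 100 to 200 kb and 76 beyond 200 kb. Across the 4886 sites with a domain on their sequence, which share 1 library, the Spearman correlation of score with distance was -0.11. The top score group held 9.52% of the 420 sites at 100 to 200 kb and 10.3% of the 174 beyond 200 kb. It held 17.2% of all remote sites. On chromosomes, 57 top-group sites lay over 100 kb from every domain. The strongest was on chromosome 6 at 1323612 to 1323711, with a score of 347, the highest of all remote Sall4-only sites.

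A part of the sites that carry no overlapping Cdx4 peak had one right beside them. Every peak is 100 bp wide, so peaks with centres 100 bp or more apart do not overlap. A Cdx4 centre lay 100 to 150 bp away at 92 remote sites, 150 to 200 bp away at 49 and 200 to 250 bp away at 21. Per 100 bp of distance this is 184 sites in the first interval, 42 in the third and 7.2 at 750 to 1000 bp. In all, 295 remote sites (5.92%, 5.28 to 6.61%) had a Cdx4 centre within 1 kb and 1081 (21.7%, 20.5 to 22.8%) within 10 kb. Sall4-only peaks near domains had higher shares, 15.3% (13.9 to 16.8%) within 1 kb and 41.8% (39.8 to 43.8%) within 10 kb. The difference at 10 kb was absent for remote sites at 5 to 10 kb from a domain, where the share was 42.0%. It was 10.3% for those at 50 to 100 kb. At the other end, 1854 remote sites (37.2%, 35.8 to 38.5%) had no Cdx4 peak within 100 kb. The share was 28.6% (26.8 to 30.4%) for Sall4-only peaks near domains. Peaks on sequences without any Cdx4 peak are included, 133 of them among the remote sites. The 2 closest cases, of 4 tied at 100 bp, were on chromosome 14 at 32386792 to 32386891 (score 46, Cdx4 score 90) and on chromosome 3 at 39021882 to 39021981 (score 82, Cdx4 score 94).

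**Figure D3:**
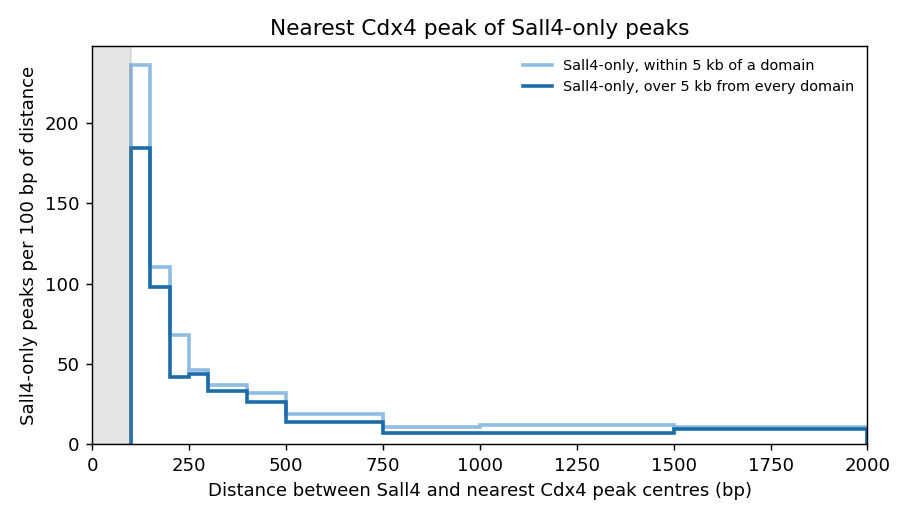
Sall4-only peaks per 100 bp of distance against the distance in bp between their centre and the nearest Cdx4 peak centre, for remote sites and for peaks within 5 kb of a domain. Below 100 bp (shaded) peaks overlap and are not Sall4-only; the count of remote sites drops from 184 per 100 bp beside the shading to 7.2 at 750 to 1000 bp.

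Sites with a nearby Cdx4 peak scored higher. The 162 remote sites with a Cdx4 centre within 250 bp had a median score of 105 (quartiles 70.5 and 152.5), and 38.3% (30.8 to 46.2%) were in the top score group. The 133 sites with Cdx4 at 250 to 1000 bp had a median of 96 and a top-group share of 29.3% (21.8 to 37.8%). The median was 91 with Cdx4 at 1 to 10 kb (786 sites), 80 at 10 to 100 kb (2052 sites) and 75 beyond 100 kb (1721 sites), where 12.6% (11.1 to 14.3%) were in the top group. Another 133 sites were on sequences without a Cdx4 peak. The nearest Cdx4 peak itself overlapped another Sall4 peak at 69 of the 162 sites with Cdx4 within 250 bp (42.6%). That share was 74.4% (99 of 133) at 250 to 1000 bp, 66.7% at 1 to 10 kb, 51.1% at 10 to 100 kb and 37.4% beyond 100 kb. A Cdx4 peak nearest to several sites was counted for each, and the share among all Cdx4 peaks is not given here. Seen by score, 33.9% of top-group remote sites and 12.7% of bottom-group sites had Cdx4 within 10 kb. For Sall4-only peaks near domains those shares were 50.9% and 35.9%.

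The 10 remote sites with the highest scores, 296 to 347, ranked between 31 and 82 in the Sall4 list and fell into different settings. A Cdx4 peak lay within 250 bp of 4 of them. The site on chromosome 1 at 16733721 to 16733820 (score 299) had a Cdx4 peak of score 77 with its centre 120 bp away and an H3K27ac domain at 5972 bp. On chromosome 11 at 38957248 to 38957347 (score 296) a Cdx4 peak of score 78 lay 119 bp away and the nearest domain, of H3K4me3, at 32999 bp. On chromosome 3 at 30432489 to 30432588 (score 317) a Cdx4 peak of score 163 lay 190 bp away, a Sall4 peak of score 170 at 229 bp and an H3K27ac domain at 5040 bp. The scaffold Zv8_NA6689 held the remaining one, at 1976 to 2075 (score 346), with Cdx4 at 125 bp. The lists reach only to position 4170 on that scaffold and hold no domain there, so its distance to a domain is unknown rather than large.

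The other 6 had no Cdx4 peak within 1 kb. The chromosome 6 site at 1323612 to 1323711 (score 347) had its nearest Cdx4 peak, of score 71, at 1976 bp, a shared Sall4 peak of score 187 at 1978 bp, and no domain within 240 kb. A second remote Sall4-only site of score 267 lay at 1325899 to 1325998, 309 bp beyond that shared peak, so that this stretch held a row of 3 Sall4 peaks. On chromosome 13 at 48107561 to 48107660 (score 318) the nearest Cdx4 peak was 450070 bp and the nearest Sall4 peak 857606 bp away, while an H3K4me3 domain lay at 8112 bp. Similar lone sites were on chromosome 23 at 36623049 to 36623148 (score 317), with Cdx4 at 257720 bp and Sall4 at 127441 bp, and on chromosome 21 at 15342296 to 15342395 (score 308), with Cdx4 at 135169 bp and Sall4 at 127581 bp. The latter had an H3K4me3 domain at 8155 bp. The site on chromosome 11 at 7306986 to 7307085 (score 311) had another remote site of score 108 at 405 bp and an H3K4me3 domain at 6765 bp. That on chromosome 3 at 23775786 to 23775885 (score 302) had its nearest neighbour, a remote site of score 291, at 52117 bp and Cdx4 at 29478 bp. No gene was assigned to any of these positions, because gene models of assembly Zv8 were not used here.

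As a whole, remote sites were less crowded than other Sall4 peaks. Another Sall4 peak lay within 10 kb of 2484 remote sites (49.8%, 48.4 to 51.2%), of 63.2% (61.2 to 65.1%) of Sall4-only peaks near domains and of 71.4% (68.4 to 74.3%) of remote peaks with Cdx4. Within 1 kb the shares were 17.4%, 24.2% and 33.4%. No other Sall4 peak lay within 100 kb of 789 remote sites (15.8%, 14.8 to 16.9%). The share was 14.3% (13.0 to 15.8%) for Sall4-only peaks near domains, with an overlapping interval, and 8.08% for remote peaks with Cdx4. The 789 include sites on sequences without another Sall4 peak, since only 4901 of the 4987 sites had one. At 10 kb, the order of the first 2 classes also held inside each score group. In the top group 66.0% of remote sites and 72.1% of Sall4-only peaks near domains had a neighbour within 10 kb, and in the bottom group 38.8% and 56.9%. The intervals were 62.7 to 69.1% and 68.1 to 75.9% in the top group, and 36.4 to 41.3% and 52.4 to 61.2% in the bottom one. Neighbouring peaks count for each other, so the sites are not independent. Whether these intervals overlap is therefore no test between the classes. The remote sites closest to domains were not less crowded than Sall4-only peaks near domains. Of the 792 remote sites at 5 to 10 kb from a domain, 66.8% had a Sall4 neighbour within 10 kb. That share was 53.3% at 10 to 20 kb and 41.0% at 50 to 100 kb.

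Close neighbours were most numerous at 150 to 250 bp. The nearest Sall4 peak was centred under 100 bp away at 25 remote sites, 150 to 200 bp away at 120 and 200 to 250 bp away at 119. Per 100 bp of distance this is 25, 240 and 238 sites, and the value was 98 at 400 to 500 bp and 28.4 at 750 to 1000 bp. The sources used here do not say how neighbouring peaks were separated, and its part in the low count at the shortest distances was not tested. Of the 866 sites with a Sall4 peak within 1 kb, 687 (79.3%) had another remote Sall4-only site as that neighbour and 176 (20.3%) a remote peak with Cdx4. Neighbours at this range share their distance to domains, so few could be near one. Among the 863 neighbours that were themselves remote, 79.6% (76.8 to 82.2%) were Sall4-only. Sall4-only sites make up 84.1% of all 5928 remote Sall4 peaks, but that base includes peaks with no close neighbour. A Sall4 peak lay within 1 kb of 17.4% of remote sites and of 33.4% of remote peaks with Cdx4. The lower 79.6% therefore does not show that remote sites paired less often with their own class. The 866 sites had a median score of 85, against 88 for the 1618 sites with a neighbour at 1 to 10 kb, 77 for the 1714 with one at 10 to 100 kb and 70 for the 789 with none within 100 kb.

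Most remote sites stood singly at the scale of 1 kb. Remote sites with centres up to 1 kb apart were joined, leaving other Sall4 peaks aside. Then 4288 sites were joined to no other remote site, 315 runs held 2 sites, 19 held 3 and 3 held 4. Some of the 4288 had a Sall4 peak of another class within 1 kb: counting every class, 866 remote sites had such a neighbour. The tightest run of 4 spanned 1461 bp on chromosome 10 at 11431477 to 11432937, with scores of 79, 86, 138 and 62 along the chromosome. It was 35128 bp from a domain and 121172 bp from a Cdx4 peak. The run on chromosome 17 at 27568565 to 27570119 had scores of 60 to 91, and the one on chromosome 12 at 29882073 to 29883666 scores of 72 to 117, with the nearest Cdx4 peak at 35699 and 19794 bp. None of these 12 sites had a Cdx4 peak within 10 kb, and 1 of them was in the top score group.

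At the larger scale of 100 kb, some windows held many remote sites. Of 2794 windows of 100 kb with at least 1 remote site, 1724 held exactly 1 and 148 held 5 or more. The count of such windows was 30 when only Sall4 peaks at or above the list's median score were kept, which left 2063 remote sites. The 148 windows held 948 sites (19.0%). No Cdx4 peak was centred in 39 of them (26.4%), no H3K27ac domain in 77 (52.0%) and no domain of either mark in 45 (30.4%). Among all windows with a remote site, 62.0% had no Cdx4 peak, 70.3% no H3K27ac domain and 35.3% no domain of either mark.

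The 5 fullest windows differed in company. The window on chromosome 9 at 12900001 to 13000000 held 14 remote sites with scores of 69 to 199, among 18 Sall4 peaks, along with 2 Cdx4 peaks, 3 H3K27ac domains and 4 H3K4me3 domains. On chromosome 16 at 27900001 to 28000000 all 12 Sall4 peaks were remote Sall4-only sites, with scores of 52 to 107, and the window held 0 Cdx4 peaks and 0 domains. On chromosome 18 at 25900001 to 26000000 there were 11 remote sites (scores 60 to 195), 2 Cdx4 peaks and 0 domains. On chromosome 7 at 56800001 to 56900000 there were 11 (scores 61 to 138) with 7 Cdx4 peaks, and on chromosome 9 at 31700001 to 31800000 there were 11 (scores 51 to 170) with 4 Cdx4 peaks, both with 0 domains. Strings of remote sites thus occurred with and without Cdx4 peaks and with and without domains in the same 100 kb.

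**Figure D4:**
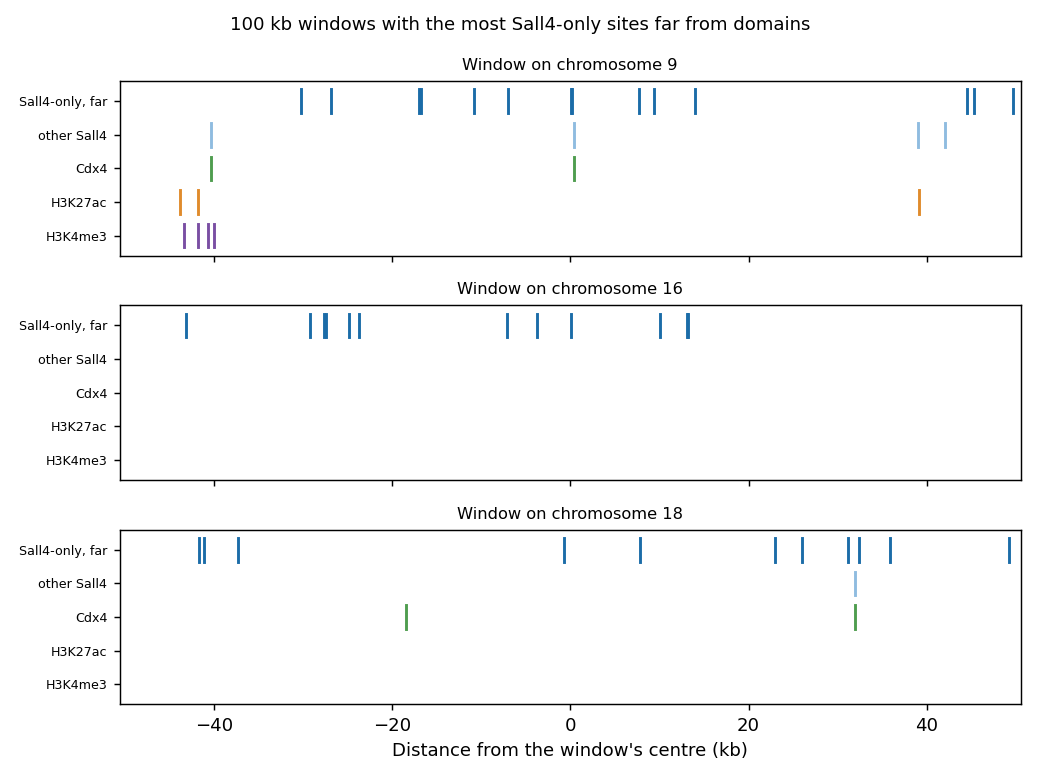
Positions of remote Sall4-only sites, other Sall4 peaks, Cdx4 peaks and histone domains in the 3 fullest 100 kb windows, in kb from each window's centre; each tick is the middle of an interval. The chromosome 16 window shows its 12 sites and nothing else, and in the chromosome 9 window the domains sit toward the ends.

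Wide stretches between neighbouring domains held a remote site more often than narrow ones, but at a lower density. The 25 chromosomes had 12975 domain-free gaps over 10 kb wide, and 2303 of them (17.7%) held a remote site. Of the gaps that held one, 1454 (63.1%) held no Cdx4 peak. The share among all gaps is not given here, so 63.1% does not show whether gaps with a remote site held Cdx4 more or less often than others. The share of gaps with a site was 2.54% for gaps of 10 to 20 kb, 18.9% at 50 to 100 kb and 48.2% above 500 kb. Per Mb of sequence over 5 kb from the gap's ends, however, sites were sparser in wider gaps, with 7.04 per Mb at 10 to 20 kb, 4.97 at 100 to 200 kb and 1.99 above 500 kb. Only 211 gaps (1.63%) held 5 or more sites, and these held 29.2% of all remote sites. The fullest gap, 226.7 kb on chromosome 18 at 20588299 to 20814999, held 20 remote sites among 26 Sall4 peaks and 7 Cdx4 peaks. A gap of 785.8 kb on chromosome 7 at 68738699 to 69524499 held 19 among 21 Sall4 peaks, with 2 Cdx4 peaks, and one of 513.1 kb on chromosome 24 at 4470399 to 4983499 held 15 remote sites, no other Sall4 peak and 2 Cdx4 peaks. These gaps were named after their counts were seen.

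Fully isolated sites were a small group with low scores. On chromosomes, 259 sites (5.19%) had no Sall4 or Cdx4 peak within 100 kb and no domain within 50 kb. Their median score was 70 (quartiles 56 and 83), and 18 (6.95%, 4.17 to 10.8%) were in the top score group. The strongest, on chromosome 19 at 1898028 to 1898127, had a score of 212, an H3K4me3 domain at 88023 bp, a Sall4 peak at 174510 bp and Cdx4 at 373226 bp. Another on chromosome 23 at 15123775 to 15123874 had a score of 211. This group and its limits were chosen after the values were seen.

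Remote sites were found on all 25 chromosomes at densities that differed by chromosome. Per Mb of sequence over 5 kb from every domain, the density ran from 2.55 on chromosome 4 to 5.66 on chromosome 23, with a median of 4.10. The share of sequence that lay that far from domains varied little, from 84.1 to 89.0% of a chromosome. Chromosomes 9 and 17 (5.52 per Mb each), 7 (5.29) and 13 (5.03) were dense, and chromosomes 21 (3.12) and 12 (3.29) sparse. Remote sites made up between 44.4% and 60.2% of a chromosome's Sall4 peaks, the latter on chromosome 9. Of the other dense chromosomes, 23 (46.0%) and 13 (46.6%) were below the 51.2% of the whole Sall4 list, and 17 (56.8%) and 7 (53.9%) above it. A high density of remote sites was thus not always a high share of the Sall4 peaks. The median score per chromosome stayed between 76 and 85.

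Chromosome 4 was low because of 1 part of it. Cut at its middle, its first part had 158 remote sites, or 5.12 per Mb (4.35 to 5.98). Its second part had 4, or 0.122 per Mb (0.0334 to 0.314), among 5 Sall4 peaks in all. The second part held 4 Cdx4 peaks, 14 H3K27ac and 319 H3K4me3 domains, against 138, 128 and 537 in the first part.

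**Figure D5:**
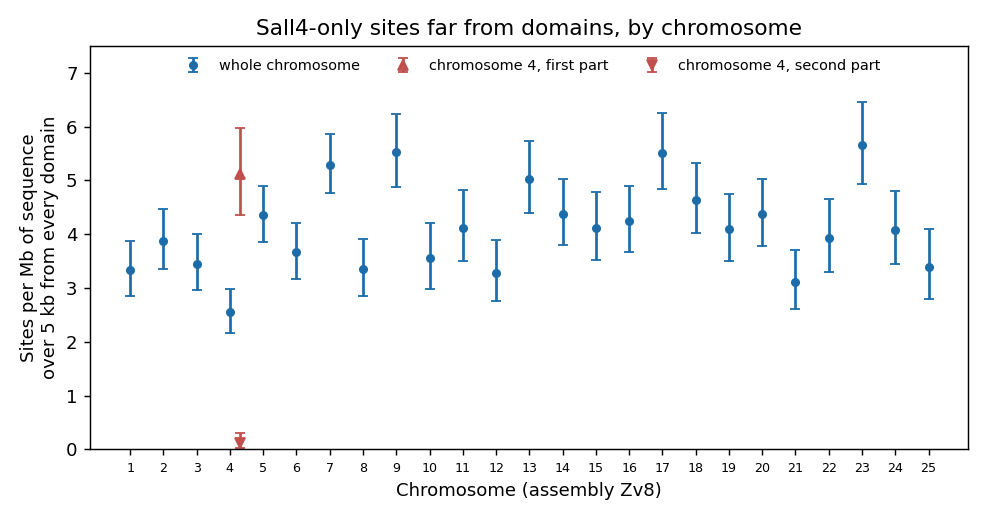
Remote Sall4-only sites per Mb of sequence over 5 kb from every domain, by chromosome, with exact Poisson 95% intervals. Chromosome 4 has the lowest point (2.55), made up of 5.12 in its first part and 0.122 in its second.

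Unplaced scaffolds held 233 remote sites (4.67%, 4.10 to 5.30%) on 149 scaffolds, against 4.76% of all Sall4 peaks and 3.10% of the sequence that the lists reach. Only scaffolds that hold an interval enter that length, up to their last interval. The 4.67% beside 3.10% therefore does not show an excess of sites on scaffolds. Of the 233 sites, 101 counted as remote because their scaffold holds no domain. On sequences with a domain, 132 of 4886 remote sites (2.70%) were on scaffolds, which make up 2.76% of that sequence. The median score of the 233 sites was 73, against 80.5 on chromosomes. A total of 126 lay within 5 kb of an end of the scaffold as far as the lists reach, where a domain beyond the end would not be seen.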

How the data were processed

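Deposited interval lists, 1 per target from 1 library each, were used as given; the 3 input libraries were not analysed here. The score of each interval is the authors' deposited value, on a scale that the sources used here do not give. Sall4 and Cdx4 peaks are named GPS_PEAK in the lists, and the submitters' processing notes list CASAVA 1.4 and Bowtie 0.12.7 without their roles. The sources used here do not state depth, thresholds or use of input. Scaffold names point to assembly Zv8. Coordinates were taken as 1-based, including both ends.

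A peak's centre was the lower of its 2 middle bases, distances ran to the nearest domain base, and an overlap of 1 bp counted. Sequence lengths were the last position any list reaches. Intervals at 95% are exact binomial (Clopper-Pearson) for shares and exact Poisson for densities; they cover counting error only, and peaks of 1 list are not replicates. No test was run. The class and distance calculations were tested on simulated lists. Tables were made with pandas 2.3.3 and numpy 2.4.6 under Python 3.11.15, intervals with scipy 1.17.1 and plots with matplotlib 3.10.9.

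The sites, score groups and distance limits were chosen with earlier results of these data known. Named positions followed a rule: the 10 top scores, the 5 sites farthest from domains, the 5 fullest windows, the 3 fullest runs, the peaks at the 5 kb limit and the sites nearest to Cdx4. Gaps and isolated sites are exceptions, as stated beside them. No sequence or gene was read, since no Zv8 genome was used here. Alternatives covered distance limits, the separation from Cdx4, the sequences, the score range, coordinates and domain widths.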

Additional observations from a re-analysis of the deposited data

How the results depend on the processing

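Each of 7 values was recomputed under up to 11 settings. Of 69 recomputed values, 49 stayed within the binomial interval of the reported share, or within 1.5 times the reported count. Measuring from the peak's edge, counting starts from 0, leaving out chromosome 4 and using assembled chromosomes only moved none of the values they were run on. With a limit of 2 kb the shares with a Sall4 peak within 10 kb, with Cdx4 within 10 kb and over 50 kb from domains were 52.8%, 25.3% and 27.3%, and with a limit of 10 kb 46.6%, 17.8% and 37.5%. With domains over 500 bp wide only, they were 53.45%, 26.2% and 51.0%. This width limit kept 906 of 4599 H3K27ac domains and 11368 of 19401 H3K4me3 domains. Dropping domains of any width can only lengthen the distance to the nearest one, so the 51.0% does not show an effect of narrow domains in particular. Requiring no Cdx4 centre within 1 kb gave 16.1% in the top score group, 47.4% with a Sall4 peak and 16.8% with Cdx4 within 10 kb. Keeping only remote sites that score at or above the Sall4 list's median left 2063 sites and 30 windows with 5 or more. Of these sites, 59.7% had a Sall4 peak of any score and 29.7% a Cdx4 peak within 10 kb. A share of 25.7% were over 50 kb from domains and 3.54% on scaffolds. Lower-scoring Sall4 peaks still counted as neighbours, so 59.7% is not the share within the better-scoring part of the list. Leaving out sites on sequences with no domain gave 30.1% over 50 kb and 2.70% on scaffolds; this setting and the next were chosen after the data were seen. Ranking by place in the deposited list in place of the score put 17.7% of the sites in the top group. With 1 library per target, leaving out a replicate was not possible.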
